A study of Mus musculus with 45 samples.

Results

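The genes described here are those of cholesterol synthesis, uptake and efflux in mouse bone marrow-derived macrophages. They were taken from a list of 32 gene symbols, matched to the symbols and then to the Ensembl identifiers of the deposited tables. Of these, 31 were found among 29307 genes, and all 31 passed the filter on low counts. The oxysterol-forming enzyme Ch25h had no row in the count table and was not analysed here. By role, 7 members act in the mevalonate steps, 11 in the squalene and sterol steps, 5 in SREBP control, 3 in sterol uptake, transport and storage, and 5 in efflux and LXR signalling.

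Bone marrow came from C57BL/6N mice aged 6 to 10 weeks. The animals carried engineered Famin (Lacc1) alleles that match human FAMIN variants, the common p.254I, the risk variant p.254V or the monogenic disease variant p.284R. Heterozygous breeding gave the littermates that were used, and each genotype was represented by 5 mice. Cells grown for 6 days in M-CSF were left unstimulated for 24 h (M0), given IFN-γ at 50 ng/mL with LPS at 20 ng/mL (M1), or given IL-4 at 20 ng/mL (M2). Poly(A) RNA gave 45 libraries in 9 groups of 5, and libraries that shared a genotype and a number were taken to be cultures of the same mouse. The libraries held between 17239009 and 43740283 counts (median 27553642). Because Famin p.254I, p.254V and p.284R differ by single residues, gene counts cannot check the genotype labels.

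Cells make cholesterol from acetyl-CoA through mevalonate, squalene and lanosterol. SREBP transcription factors switch this pathway and lipoprotein uptake on when sterol in the endoplasmic reticulum is low. Their escort SCAP carries them to the Golgi, and INSIG proteins retain the complex when sterol is plentiful. Excess sterol is esterified for storage or, as oxysterol, activates the nuclear receptors LXRα and LXRβ, which raise the efflux transporters ABCA1 and ABCG1, apolipoprotein E and MYLIP, a ubiquitin ligase that removes lipoprotein receptors. Macrophages depend on this balance because they take up large amounts of lipoprotein and cell debris.

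Labels were checked against marker genes. The macrophage genes Adgre1, Csf1r, Cd68, Itgam, Mertk and Fcgr1 summed to between 5432 and 11008 CPM (counts scaled to the library size after TMM) in every library. All 4 T cell, 3 B cell, 3 mast cell and 3 erythroid genes stayed below 1 CPM throughout. The neutrophil granule gene Ngp reached 77.7 CPM in M0, 38.2 in M1 and 15.6 in M2, while Ly6g and Elane stayed below 1 CPM. The summed fibroblast genes ranged from 9.74 to 44.2 CPM in M0, from 2.99 to 9.78 in M1 and from 3.98 to 15.1 in M2. The part of these cells in the results below was not tested, and fewer cells of a type cannot be told apart from less RNA per cell. Of the M1 genes, Cxcl9 ranged from 979 to 5339.9 CPM in M1 and did not exceed 1.45 elsewhere, whereas Il12b did not exceed 0.201 CPM anywhere. The M1 gene Nos2 was uneven in M1, at 81.5, 149 and 131 CPM in p.284R mice 3 to 5 and 26.0 or less in the other libraries. Within M1 it was lowest in the libraries numbered 2, at 3.01, 4.92 and 8.60 CPM. In Arg1, Retnla or Fcgr1, 3 libraries of p.254I stood apart. The M1 library of p.254I mouse 5 held 40.8 CPM of Arg1 and 49.1 CPM of Retnla, M2 genes that did not exceed 0.912 and 0.249 CPM in the other M1 libraries. The M0 library of p.254I mouse 4 held 1098 CPM of Fcgr1, against 463 or less in the other M0 libraries. The M2 library of the same mouse held 153 CPM of Fcgr1, against 55.1 or less in the other M2 libraries, and the least Retnla in M2 (1287 CPM). Without the first pair, and also without all 3, 27 members were called in M1 against M0 in place of 28, the one lost being Fdps, and no direction of a called member changed.

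Polarization was compared with edgeR's two-sided quasi-likelihood test on all 12905 genes that passed the filter, as the mean of the differences within the 3 genotypes. A gene was called where its p, adjusted by the Benjamini-Hochberg method over all genes tested, lay under 0.05. In M1 against M0, 28 of the 31 members were called, 8 higher and 20 lower, where 77.3% of all genes tested were called. In M2 against M0, 28 were called, 22 higher and 6 lower, where 76.4% of all genes were called. In M1 against M2, 28 were called, 7 higher and 21 lower, where 79.1% of all genes were called. By direction, 36.8% of all genes were higher and 39.6% lower in M2 than in M0, 37.0% were higher and 40.3% lower in M1 than in M0, and 39.0% were higher and 40.1% lower in M1 than in M2. The median log2 fold change over the members was -0.48 in M1 against M0, 0.60 in M2 against M0 and -0.87 in M1 against M2, beside medians over all genes of -0.03, -0.03 and -0.01. The first 2 comparisons share the M0 libraries, so a gene called in both does not count as 2 independent results. Their values are given side by side, and no test of the overlap between them was run.

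**Figure D1:**
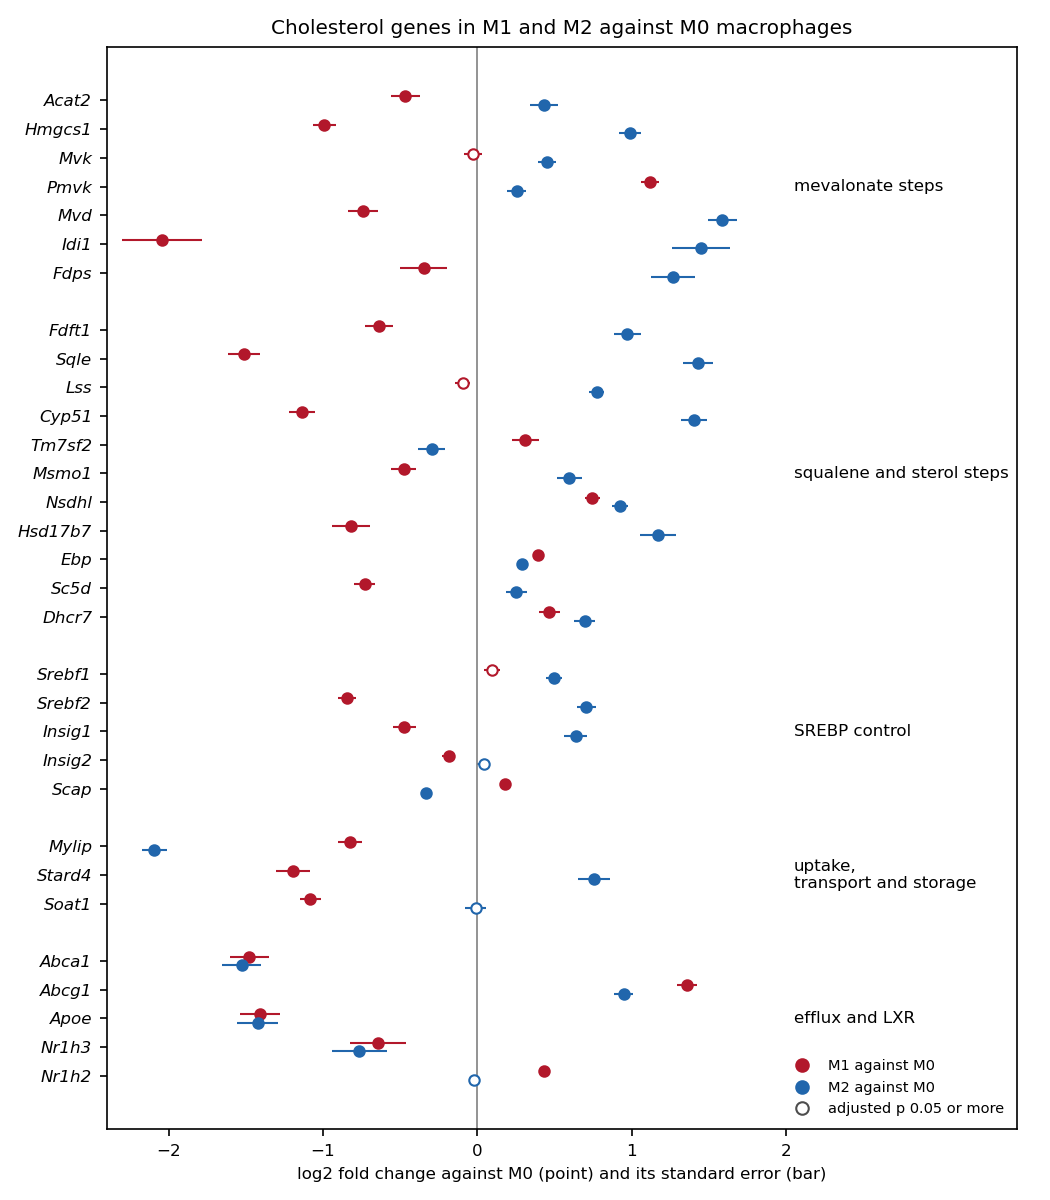
Log2 fold change (x axis, point) with its standard error (bar) of the 31 members (y axis, by role) in M1 (red) and M2 (blue) against M0, from the edgeR fit to 45 libraries; open points have an adjusted p of 0.05 or more. In M2, 17 of the 18 synthesis genes lie to the right of 0, and in M1 Idi1 and Sqle lie farthest to the left, while Abca1 and Apoe lie near -1.5 in both.

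Summed over the synthesis genes, transcripts were highest in M2, and the mean sum was lowest in M1. The 18 synthesis genes summed to 377 ± 39.1 CPM in M0 (SD, n = 15), 324 ± 16.1 in M1 and 669 ± 88.5 in M2. The M2 sums, from 525 to 838 CPM, lay above every M0 sum, which ranged from 344 to 473. The M1 sums, from 297 to 354 CPM, overlapped those of M0. Within mice, the sum was higher in M2 than in M0 in 15 of 15 mice, with a median ratio of 1.77 (1.40 to 2.09), and lower in M1 than in M0 in 13 of 15, with a median ratio of 0.904 (0.680 to 1.03). By gene, 17 of 18 were higher in M2 than in M0 and 1 was lower, where 36.8% and 39.6% of all genes were. Against M0, 5 were higher, 11 lower and 2 not called in M1, where 37.0% of all genes were higher and 40.3% lower. Against M2, 15 of 18 were lower in M1 and 3 were higher, where 40.1% and 39.0% of all genes were. The median log2 fold change of the 18 genes was 0.85 in M2 against M0, -0.47 in M1 against M0 and -1.03 in M1 against M2.

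**Figure D2:**
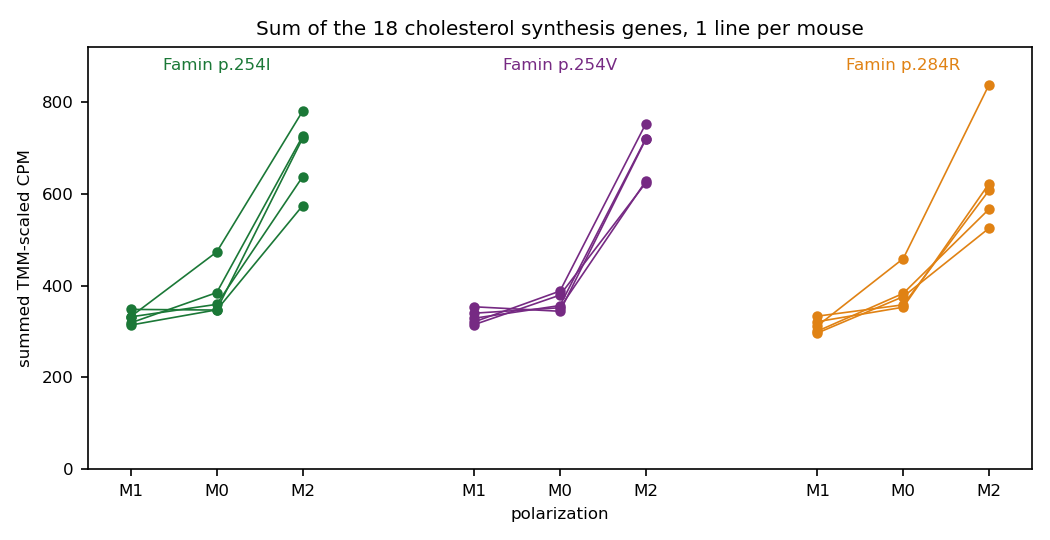
Sum of the TMM-scaled CPM of the 18 synthesis genes (y axis) in M1, M0 and M2 (x axis), with 1 line for each of the 15 mice in 3 genotypes. Every line rises from M0 to M2, and the M2 sums from 525 to 838 CPM lie above the M0 sums from 344 to 473.

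In the mevalonate steps, 7 of 7 genes were higher in M2 than in M0, while in M1 5 were lower and 1 was higher. Of all genes tested, 36.8% were higher in M2, and 40.3% were lower and 37.0% higher in M1. Hmgcs1, the cytosolic HMG-CoA synthase that opens the committed route, had a lowest, median and highest level of 62.5, 67.9 and 89.7 CPM in the 15 M0 libraries. Its levels were 31.9, 35.4 and 40.2 CPM in M1 and 104, 133 and 195 CPM in M2, so that none of the 3 ranges overlapped. Its log2 fold change was -0.99 ± 0.07 (SE) in M1 against M0 (edgeR adjusted p = 1.05e-15) and 0.99 ± 0.07 in M2 against M0 (adjusted p = 1.18e-15), and between M1 and M2 it was -1.98 ± 0.07.

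Mvd, the decarboxylase that makes isopentenyl diphosphate, ranged from 5.81 to 11.2 CPM in M0 (median 7.62), from 3.03 to 5.66 in M1 (median 4.77) and from 16.4 to 30.4 in M2 (median 23.1). The ranges were again apart, with log2 fold changes against M0 of -0.74 ± 0.10 in M1 and 1.59 ± 0.09 in M2, the largest M2 increase in the list by the fitted value. Idi1, the isomerase of isopentenyl diphosphate, changed most in M1, with a log2 fold change of -2.04 ± 0.26 against M0 and 1.45 ± 0.19 in M2. It also had the lowest counted level of the members, at 0.24 to 0.95 CPM in M0 (median 0.43), 0 to 0.37 in M1 (median 0.10) and 0.90 to 2.36 in M2 (median 1.32). These levels rest on 6 to 28, 0 to 8 and 24 to 62 reads per library, and the M0 range touched both others. Fdps, which joins isoprene units into farnesyl diphosphate, ranged from 0.77 to 2.07 CPM in M0, from 0.49 to 1.96 in M1 and from 1.66 to 4.38 in M2. Its increase in M2 was 1.27 ± 0.14 (log2, adjusted p = 2.08e-10). Its decrease in M1 of -0.35 ± 0.15 (adjusted p = 0.036) was lower in 10 of 15 mice and was not called without p.254I mouse 5 (-0.26, adjusted p = 0.105), without p.284R mouse 5 (-0.27, adjusted p = 0.116), without p.254V mouse 5 (-0.28, adjusted p = 0.11) or without any of 5 further single mice.

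The M1 decrease was not shared by all mevalonate genes. Pmvk, phosphomevalonate kinase, ranged from 12.1 to 17.5 CPM in M0, from 26.4 to 44.3 in M1 and from 15.6 to 20.4 in M2. It rose in M1 by 1.12 ± 0.06 on the log2 scale (adjusted p = 1.89e-20) and in 15 of 15 mice. Mvk, mevalonate kinase, differed from M0 by -0.03 ± 0.06 in M1 (adjusted p = 0.674) and by 0.45 ± 0.06 in M2 (adjusted p = 8.53e-09). Acat2, the cytosolic thiolase that starts the pathway, fell by 0.47 in M1 and rose by 0.44 in M2.

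Among the squalene and sterol steps, 10 of 11 genes were higher in M2 than in M0 and 1 was lower, and in M1 6 were lower and 4 higher. The shares of all genes tested were 36.8% higher and 39.6% lower in M2, and 40.3% lower and 37.0% higher in M1. Sqle, squalene epoxidase, a rate-limiting oxygen-dependent step, ranged from 21.0 to 45.4 CPM in M0 (median 27.9), from 8.49 to 14.3 in M1 (median 9.51) and from 56.2 to 89.1 in M2 (median 80.5). The 3 ranges did not overlap, and the log2 fold change was -1.51 ± 0.10 in M1 against M0, 1.43 ± 0.10 in M2 against M0 and -2.94 ± 0.10 in M1 against M2. Cyp51, the lanosterol demethylase, ranged from 22.2 to 40.5 CPM in M0 (median 24.1), from 10.4 to 16.0 in M1 (median 11.9) and from 54.0 to 91.7 in M2 (median 73.8). It was apart in the same order, with log2 fold changes of -1.14 ± 0.09 in M1 and 1.40 ± 0.08 in M2 against M0. Hsd17b7, a sterol ketoreductase, ranged from 3.95 to 9.05 CPM in M0 (median 6.01), from 2.36 to 5.11 in M1 (median 3.38) and from 10.3 to 18.9 in M2 (median 14.1). Its M1 range overlapped that of M0, although it was lower in 15 of 15 mice (-0.82 ± 0.12, adjusted p = 1.84e-07).

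Fdft1, squalene synthase (-0.64 in M1 and 0.97 in M2), Msmo1, which oxidizes the C4 methyl groups (-0.48 and 0.60), and Sc5d, the sterol desaturase (-0.73 and 0.25), were also called in both comparisons with M0, lower in M1 and higher in M2. Lss, which closes the ring to lanosterol, rose in M2 (0.77 ± 0.05) and was not called in M1 (-0.10 ± 0.05, adjusted p = 0.0734), where the fit with the mouse as a block did call it (-0.09, adjusted p = 0.0313). Of the 8 genes that act after lanosterol, 4 fell in M1 (Cyp51, Msmo1, Hsd17b7 and Sc5d) and 4 rose. Nsdhl, a C4 decarboxylase, rose by 0.75 ± 0.05, Dhcr7, which makes cholesterol from its last precursor, by 0.47 ± 0.07, and Ebp, a sterol isomerase, by 0.40 ± 0.04, each in 15 of 15 mice. All of these rose in M2 as well, by 0.92, 0.69 and 0.29. Tm7sf2, a sterol C14 reductase, was the exception in M2. It fell by 0.29 ± 0.09 there (adjusted p = 0.00272), in 14 of 15 mice, and rose in M1 by 0.31 ± 0.09 (adjusted p = 0.00137), in 13 of 15.

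Reads of some members could have been shared with other genes. Of the distinct 50-base windows of its transcripts in the GENCODE annotation, Acat2 shared 39.1% with other genes, mainly Acat3, Fdps 26.2%, Idi1 17.7%, Tm7sf2 9.87% (with Vps51, which it overlaps on the same strand) and Fdft1 9.38%, so the values of these 5 are uncertain. The other 26 members shared under 3%. Fdft1 overlaps Ctsb, Cyp51 overlaps Akap9 and Srebf1 overlaps Rai1 on opposite strands, and the use of strand in counting is not given in the sources used here. Per kilobase of exon, the most abundant synthesis gene in M0 was Ebp (18.9 CPM per kb), followed by Hmgcs1 (15.5), Msmo1 (9.49) and Pmvk (8.59), and the least abundant were Fdps (0.302) and Idi1 (0.134).

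The promoters of the synthesis genes are shown because SREBP2, the isoform best known for this pathway, binds sterol regulatory elements together with NF-Y, a trimer that binds CCAAT boxes. RefSeq promoter windows on GRCm38.p6, from 250 bases before to 50 after the start, were at hand for 27 of the 32 listed genes and 15 of the 18 synthesis genes. CCAAT or its complement stood in the windows of 14 of the 15 synthesis genes, all but Acat2, and in 43.1% of the 9982 genes tested that had a window. Counted by window, it stood in 77.8% of 18 synthesis windows and in 37.8% of 12753. The sterol regulatory element, searched as TCACNCCAC on both strands, stood in 1 of the 15, Hmgcs1, and in 1.36% of the genes tested. Only exact matches were counted, so elements with other letters were missed, and a window without a match may still hold one. An LXR element, searched as a pair of direct AGGTCA copies 4 bases apart, stood in none of the 38 windows of the 27 members and in none of the 12753 windows of the genes tested. With no match in any window, this search cannot tell the members from other genes. These letters are a description of the windows and not of binding. The bases just before the start of Hmgcs1 and of 3 genes that were lower in M1 and higher in M2, Mvd, Idi1 and Cyp51, are printed below with Msmo1, which holds 3 boxes, and Tm7sf2, which fell in M2. They run 5′ to 3′ on the strand of the gene. Capitals mark the CCAAT box in either orientation and, in Hmgcs1, the exact match to TCACNCCAC. Their places are chr13:119690101-119690350 (plus strand) for Hmgcs1, chr8:122443423-122443572 (minus strand) for Mvd, chr13:8885456-8885605 (plus strand) for Idi1, chr5:4104698-4104847 (minus strand) for Cyp51, chr8:64733579-64733778 (minus strand) for Msmo1 and chr19:6067851-6068000 (minus strand) for Tm7sf2.
Hmgcs1: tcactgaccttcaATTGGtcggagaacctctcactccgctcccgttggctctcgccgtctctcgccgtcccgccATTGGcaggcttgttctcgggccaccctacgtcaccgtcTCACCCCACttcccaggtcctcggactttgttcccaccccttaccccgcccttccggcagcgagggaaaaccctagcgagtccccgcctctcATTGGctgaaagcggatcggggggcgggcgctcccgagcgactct
Mvd: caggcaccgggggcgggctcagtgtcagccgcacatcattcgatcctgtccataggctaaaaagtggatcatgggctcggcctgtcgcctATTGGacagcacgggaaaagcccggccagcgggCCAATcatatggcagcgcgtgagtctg
Idi1: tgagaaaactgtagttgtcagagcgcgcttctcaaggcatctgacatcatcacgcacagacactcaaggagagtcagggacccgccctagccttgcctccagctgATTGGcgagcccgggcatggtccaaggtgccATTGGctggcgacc
Cyp51: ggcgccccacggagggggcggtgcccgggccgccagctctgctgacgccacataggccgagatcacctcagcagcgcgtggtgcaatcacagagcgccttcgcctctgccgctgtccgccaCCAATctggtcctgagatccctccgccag
Msmo1: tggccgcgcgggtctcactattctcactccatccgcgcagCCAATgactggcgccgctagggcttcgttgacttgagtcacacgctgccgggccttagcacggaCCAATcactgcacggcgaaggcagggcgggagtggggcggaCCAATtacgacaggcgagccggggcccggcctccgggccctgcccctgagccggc
Tm7sf2: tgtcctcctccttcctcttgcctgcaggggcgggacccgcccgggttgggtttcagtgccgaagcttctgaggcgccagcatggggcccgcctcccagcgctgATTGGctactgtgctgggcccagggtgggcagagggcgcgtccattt
The box was present in Pmvk, Nsdhl, Ebp and Dhcr7, which rose in M1, as well as in Mvd, Idi1 and Cyp51, which fell there.

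Of the 5 SREBP control genes, 3 were lower and 1 was higher in M1 than in M0, and 3 were higher and 1 was lower in M2. The share called was thus near that of all genes tested, 77.3% in M1 and 76.4% in M2. Srebf2 (chr15:82147181-82205379, plus strand, mm10), which encodes SREBP2, ranged from 81.1 to 131 CPM in M0 (median 94.1), from 47.1 to 68.5 in M1 (median 56.2) and from 145 to 193 in M2 (median 168). The ranges were apart, with log2 fold changes of -0.84 ± 0.06 in M1 (adjusted p = 3.57e-16) and 0.71 ± 0.06 in M2 (adjusted p = 9.51e-14). Insig1, which encodes a retention protein and is itself an SREBP target, ranged from 32.4 to 48.9 CPM in M0 (median 36.5), from 23.6 to 37.6 in M1 (median 27.0) and from 46.0 to 75.6 in M2 (median 57.9). Neighbouring ranges overlapped, but it was lower in M1 (-0.47 ± 0.07) and higher in M2 (0.64 ± 0.07) than in M0 in 15 of 15 mice. Srebf1, the isoform linked to fatty acid synthesis and to LXR, ranged from 59.9 to 83.8 CPM in M0 (median 70.1), from 59.4 to 88.7 in M1 (median 77.0) and from 86.1 to 113 in M2 (median 104). It rose in M2 by 0.50 ± 0.05 and was not called in M1 (0.10 ± 0.05, adjusted p = 0.0845), where the fit with the mouse as a block called it (adjusted p = 0.0451). Insig2 fell slightly in M1 (-0.18 ± 0.04) and differed by 0.04 ± 0.04 in M2 (adjusted p = 0.384). Scap, the sterol-sensing escort, rose by 0.18 ± 0.04 in M1 and fell by 0.33 ± 0.04 in M2, where its 15 libraries, from 46.0 to 55.9 CPM, lay below the M0 range of 56.8 to 69.1.

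Uptake, transport and storage genes were each lower in M1, where 40.3% of all genes were, and in M2 each did something different. Mylip (chr13:45389742-45412022, plus strand), the LXR-induced ligase that targets lipoprotein receptors, ranged from 65.7 to 127 CPM in M0 (median 89.2), from 45.6 to 60.2 in M1 (median 50.6) and from 15.4 to 25.9 in M2 (median 21.3). It fell by 0.82 ± 0.08 in M1 and by 2.09 ± 0.08 in M2, the largest M2 change among the members, and was higher in M1 than in M2 by 1.27 ± 0.08 (adjusted p = 4.51e-18). Stard4, which carries cholesterol between membranes and is an SREBP2 target, ranged from 26.1 to 46.4 CPM in M0 (median 30.5), from 10.0 to 22.4 in M1 (median 12.6) and from 40.5 to 70.0 in M2 (median 52.2). Its log2 fold change against M0 was -1.20 ± 0.11 in M1 and 0.76 ± 0.11 in M2. Soat1 (chr1:156424525-156474331, minus strand), which esterifies cholesterol for storage in droplets, ranged from 372 to 705 CPM in M0 (median 481), from 213 to 260 in M1 (median 240) and from 451 to 550 in M2 (median 499). It fell in M1 by 1.08 ± 0.07 (adjusted p = 1.81e-17), and its M2 difference was -0.01 ± 0.07 (adjusted p = 0.905), higher in 8 of 15 mice.

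**Figure D3:**
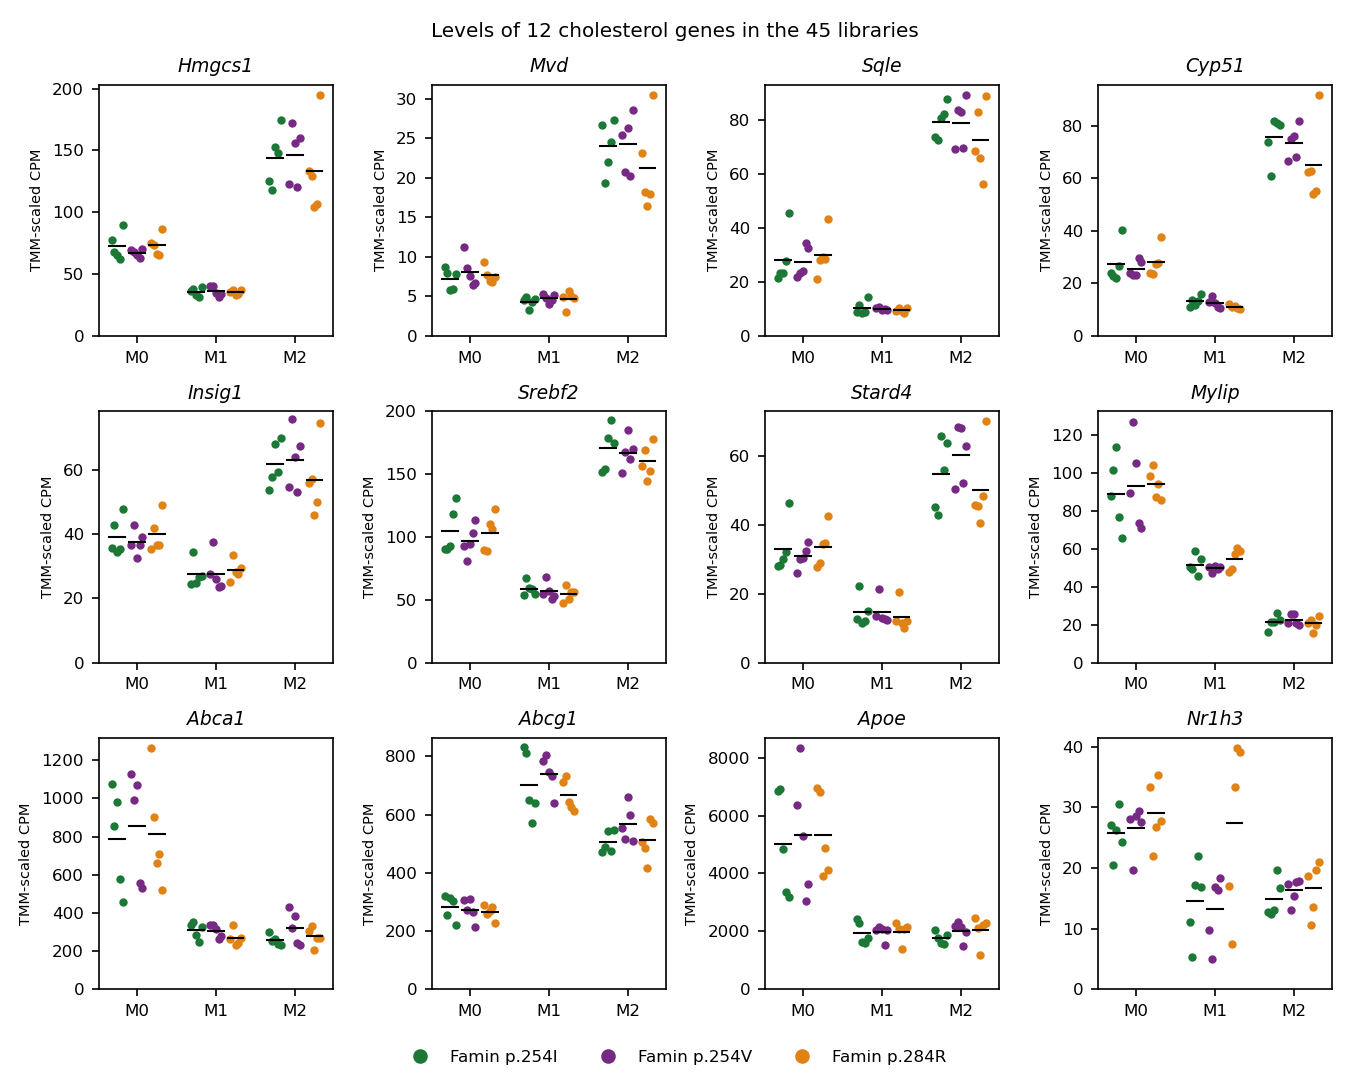
TMM-scaled CPM (y axis, from 0) of 12 members in M0, M1 and M2 (x axis), with 1 point per library, coloured by Famin genotype, and a black line at the mean of each group of 5. Hmgcs1, Mvd, Sqle, Cyp51 and Srebf2 step from M1 through M0 to M2 without overlap, Mylip falls from M0 through M1 to M2, and Abca1 and Apoe are low in both M1 and M2.

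Efflux genes did not move as a block. Abca1 (chr4:53030787-53159895, minus strand), which loads cholesterol onto lipid-poor apolipoprotein, ranged from 457 to 1265 CPM in M0 (median 853), from 233 to 353 in M1 (median 282) and from 207 to 430 in M2 (median 269). Both polarized states lay below every M0 library, with log2 fold changes of -1.48 ± 0.13 in M1 (adjusted p = 1.48e-13) and -1.53 ± 0.13 in M2 (adjusted p = 8.95e-14). M1 and M2 were not called different (0.05 ± 0.13, adjusted p = 0.716). Apoe (chr7:19696109-19699188, minus strand), the apolipoprotein that macrophages secrete with cholesterol, ranged from 3045 to 8331 CPM in M0 (median 4883), from 1373 to 2415 in M1 (median 2063) and from 1171 to 2464 in M2 (median 2054). It fell by 1.41 ± 0.13 in M1 and by 1.42 ± 0.13 in M2, again with no called difference between M1 and M2 (0.01 ± 0.13, adjusted p = 0.919). At 2446 CPM per kb of exon in M0 it was the most abundant member, and Abca1 followed at 79.0 and Soat1 at 51.1.

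Abcg1 (chr17:31057675-31117988, plus strand), which moves cholesterol to mature HDL, went the other way. It ranged from 213 to 320 CPM in M0 (median 272), from 572 to 833 in M1 (median 712) and from 418 to 659 in M2 (median 517). Both ranges lay above M0, with log2 fold changes of 1.36 ± 0.06 in M1 and 0.95 ± 0.06 in M2, and M1 was above M2 by 0.41 ± 0.06 (adjusted p = 1.8e-07). Nr1h3, which encodes LXRα, fell by 0.64 ± 0.18 in M1 (adjusted p = 0.00141), in 12 of 15 mice, and by 0.76 ± 0.18 in M2 (adjusted p = 0.000219), in 15 of 15. In p.284R mice 3 to 5 it was higher in M1 (33.4, 39.8 and 39.2 CPM) than in M0 (26.7, 35.4 and 27.8 CPM). Its M1 libraries spread from 5.03 to 39.8 CPM, against 19.7 to 35.4 in M0 and 10.6 to 21.0 in M2. Nr1h2, which encodes LXRβ, rose in M1 from a range of 88.5 to 105 CPM to one of 121 to 139 (0.43 ± 0.03, adjusted p = 2.01e-17) and differed by -0.02 ± 0.03 in M2 (adjusted p = 0.515).

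Ranges that do not overlap were counted over all 15 libraries a side. In M2 against M0, 8 of the 18 synthesis genes lay wholly above M0 and 0 below, where 13.6% of all genes lay above and 9.78% below. In M1 against M0, 5 of the 18 lay wholly below and 3 above, where 13.5% and 15.2% of all genes did. In M1 against M2, 11 of the 18 lay wholly below and 1 above, where 18.1% and 17.6% of all genes did.

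Genes around the listed members were given by count, in this and the next paragraph. Beside these counts, 37.0% of all genes tested were higher and 40.3% lower in M1 than in M0. In M2 the shares of all genes were 36.8% and 39.6%. LXR partners and LXR-responsive lipid genes, of which 10 of 11 were tested, had 8 lower and 1 higher in M1 than in M0, and 7 lower and 1 higher in M2, with median log2 fold changes of -0.86 and -0.85. Among them, Rxra, the dimer partner of LXR, fell by 1.62 ± 0.10 in M1 and by 0.85 ± 0.10 in M2. Abca5, an ABC transporter, fell by 1.79 ± 0.12 and 1.77 ± 0.12, and Smpdl3a, a phosphodiesterase, by 0.17 ± 0.08 and 1.51 ± 0.08. Of the lipoprotein uptake and sterol transport genes, 5 of 14 were higher and 7 lower in M1, and 4 were higher and 8 lower in M2. Nceh1, which hydrolyses cholesteryl ester, fell by 1.12 ± 0.05 in M1 and by 0.65 ± 0.05 in M2. Stard3, a late endosomal sterol carrier, differed by 0.50 ± 0.05 in M1 and -0.30 ± 0.05 in M2.

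SREBP processing and sterol-regulated degradation genes showed 5 of 10 higher and 4 lower in M1, and 3 higher and 3 lower in M2. Rnf139, an endoplasmic reticulum ubiquitin ligase, rose in M1 by 0.86 ± 0.04 and fell in M2 by 0.26 ± 0.04. Erlin1, a sterol-binding membrane scaffold, rose by 0.63 ± 0.04 and fell by 0.45 ± 0.04, and Pgrmc1 fell in M1 by 0.36 ± 0.04 and rose in M2 by 0.42 ± 0.04. In the isoprenoid branch, which uses mevalonate for prenyl groups and ubiquinone, 7 of 11 genes were higher and 3 lower in M1, and 6 higher and 2 lower in M2. Coq2, of ubiquinone synthesis, rose by 1.30 ± 0.07 in M1 and fell by 0.22 ± 0.07 in M2. Rabggta, of Rab prenylation, rose by 0.31 ± 0.04 in M1 and fell by 0.37 ± 0.04 in M2, and Fnta, of protein farnesylation, fell by 0.24 ± 0.03 and rose by 0.18 ± 0.03.

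Between Famin genotypes no member was called, in any polarization or over all 3 together, in the edgeR fit to all 45 libraries. This fit held no term for mouse or replicate number, so over all 3 polarizations it treated cultures of the same mouse as independent. No member was called either with the mouse as a random block in limma-voom or with the replicate number as a block. For p.284R against p.254I within M1, 0 of 31 members were called where 0.263% of all genes were, and 2 members had an unadjusted p under 0.05. Over all polarizations 0.0155% of all genes were called for p.284R and for p.254V against p.254I, and 0% for p.284R against p.254V. The unadjusted p was under 0.05 for 1 member in the first of these comparisons, 0 in the second and 1 in the third. In M2 p.284R had 0.00775% of all genes called and 1 member with an unadjusted p under 0.05. The remaining comparisons within a polarization had 0% of all genes called and 0 such members. The log2 fold changes of the 31 members ran from -0.16 to 0.17 in M0, from -0.38 to 0.92 in M1 and from -0.34 to 0.21 in M2 for p.284R. For p.254V they ran from -0.23 to 0.16, from -0.13 to 0.40 and from -0.09 to 0.32. The standard error of a member had a median of 0.13 within a polarization. Interaction terms, which ask whether a genotype difference changes from M0 to M1 or M2, called 0 members and 0% of all genes, with 1 unadjusted p under 0.05, that of Scap.

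**Figure D4:**
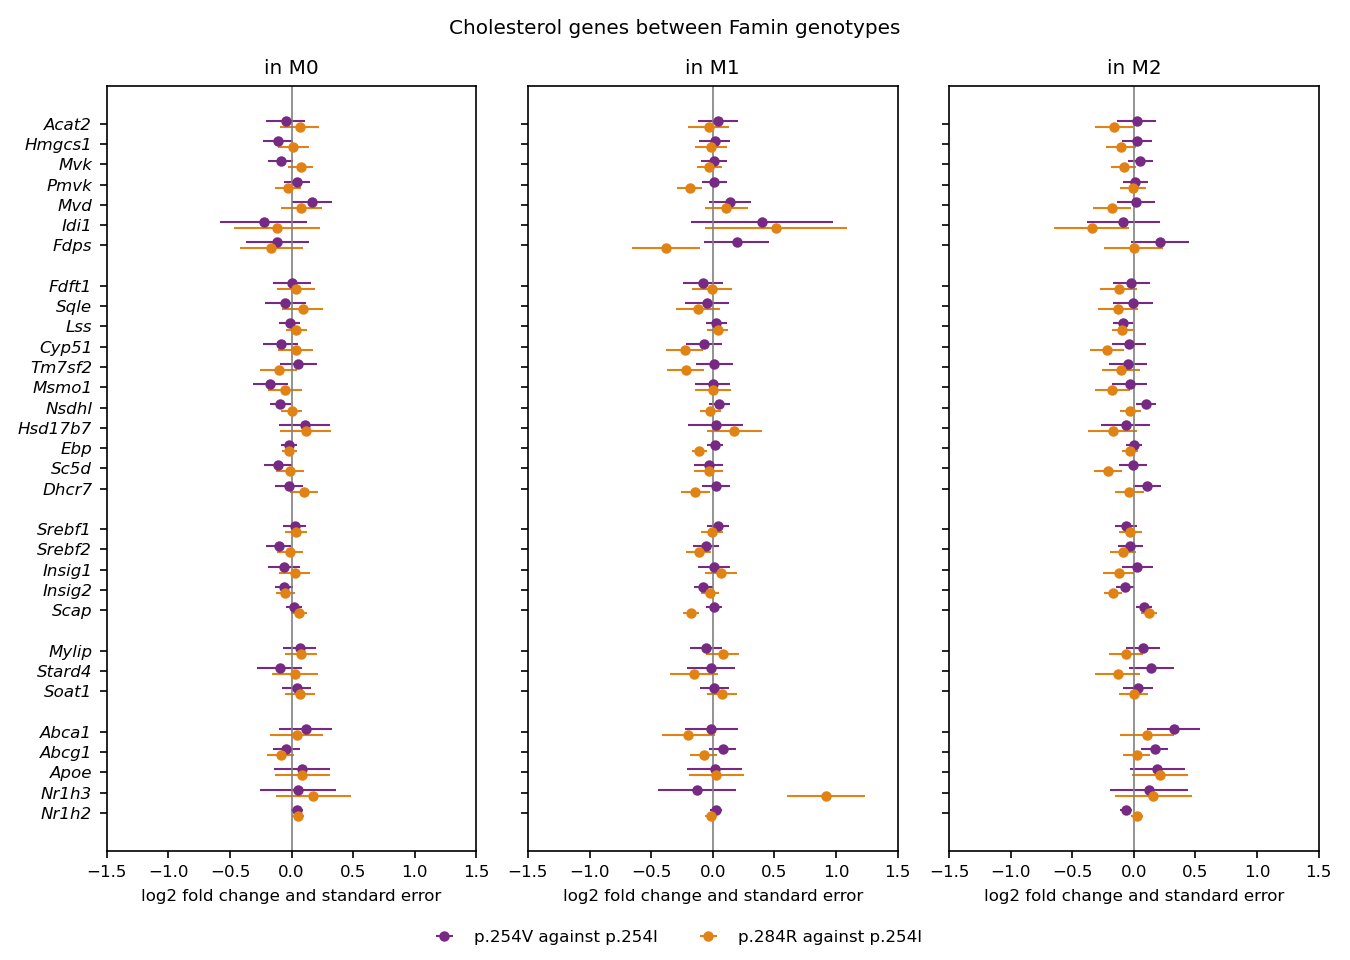
Log2 fold change (x axis, point) and standard error (bar) of the 31 members (y axis) for Famin p.254V (purple) and p.284R (orange) against p.254I, in M0, M1 and M2. Points of p.284R in M0 lie within -0.16 and 0.17, and Nr1h3 in M1 lies at 0.92.

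The synthesis genes summed to 382 ± 53.2 CPM in p.254I, 364 ± 18.8 in p.254V and 386 ± 42.7 in p.284R in M0 (SD, n = 5 each). The sums were 329 ± 13.4, 332 ± 15.5 and 313 ± 15.03 in M1, and 687 ± 81.4, 689 ± 59.0 and 632 ± 121 in M2. Since the numbers were taken to pair libraries in M0 and M1, sums there were also compared at equal numbers by an exact two-sided permutation test of paired differences, which cannot go below p = 0.0625 with 5 pairs. In M1 the p.284R sum was below that of p.254I at 5 of 5 numbers, by 10.4 to 20.3 CPM, and below that of p.254V at 5 of 5, by 8.63 to 32.2 CPM (exact permutation p = 0.0625 for each, 0.125 adjusted over 6 comparisons). In M0 the p.284R sum was above that of p.254V at 5 of 5 numbers, by 1.23 to 70.8 CPM, with the same exact permutation p, and above that of p.254I at 2 of 5. In M2, where the numbers were not taken to pair libraries, the p.284R sum was below that of p.254I at numbers 1, 3 and 4. It was above it at numbers 2 (608 against 574 CPM) and 5 (838 against 780 CPM). The pairing was taken from correlations in these same libraries, and a sum weighs abundant genes most. By gene, the median log2 fold change of p.284R against p.254I in M1 was -0.03 in the mevalonate steps. It was -0.03 in the squalene and sterol steps, and no gene of either was called.

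Nr1h3 had the largest genotype difference. Its M1 levels were 11.1, 5.37, 17.2, 22.0 and 16.9 CPM in p.254I mice 1 to 5, and 9.72, 5.03, 16.9, 16.3 and 18.3 CPM in p.254V. In p.284R they were 16.98, 7.52, 33.4, 39.8 and 39.2 CPM. The p.284R libraries 3 to 5 lay above every other M1 library, while numbers 1 and 2 lay within the range of the other genotypes. At equal numbers p.284R was the highest in 5 of 5. The log2 fold change of p.284R against p.254I was 0.92 ± 0.31 (edgeR adjusted p = 0.394). With the replicate number as a block it was 0.89 (adjusted p = 0.0527), and without p.284R mouse 2 it was 1.16 and was called (adjusted p = 0.0295). Leaving out the M1 libraries numbered 2 in all genotypes also called it (0.94, adjusted p = 0.0395). In M0 the group means were 25.8 ± 3.70, 26.7 ± 3.97 and 29.0 ± 5.35 CPM, and in M2 14.9 ± 3.20, 16.3 ± 2.02 and 16.7 ± 4.40. The M1 gene Nos2 was 81.5, 149 and 131 CPM in the same 3 p.284R libraries and did not exceed 26.0 in any other, and was lowest, at 3.01, 4.92 and 8.60 CPM, in the libraries numbered 2. The part of this in the Nr1h3 values was not tested.

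Scap in M1 was 78.1 and 71.9 CPM in p.284R mice 1 and 2 and 58.7, 60.2 and 58.2 CPM in mice 3 to 5. The p.254I libraries ranged from 68.9 to 80.8 CPM and the p.254V libraries from 70.8 to 82.7. The difference of p.284R from p.254I was -0.18 ± 0.07 (adjusted p = 0.465), and of the 26 alternative settings run, it was called only in the one that left out p.284R mouse 1 (-0.25, adjusted p = 0.0452). For the change in this difference from M0 to M1 the value was -0.24 ± 0.09 (adjusted p = 1). Insig2 in M2 was 38.4 ± 4.05 CPM in p.254I and 34.1 ± 2.86 in p.284R (-0.17 ± 0.07, adjusted p = 1).

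Libraries that shared a number varied together across genotypes. The replicate number held a median of 75.7% of the sum of squares of log2 CPM of the members in M0, 52.6% in M1 and 48.4% in M2, beside 61.4%, 50.3% and 48.0% over all genes tested. Genotype held 4.50%, 7.42% and 11.4% of it, beside 4.58%, 10.3% and 8.27%. Apoe in M0 was between 6348 and 8331 CPM in all libraries numbered 1 or 2 and between 3045 and 5293 in those numbered 3 to 5. Abca1 in M0 ranged from 1077 to 1265 CPM in the libraries numbered 1 and from 457 to 533 in those numbered 5. The neutrophil precursor gene Ngp also moved with the number in M0, from 30.1 to 77.7 CPM in the libraries numbered 1 or 2 and from 6.75 to 23.5 in those numbered 3 to 5. The 4 neutrophil and precursor genes together, of which Ly6g and Elane stayed below 1 CPM, summed to between 30.7 and 80.02 CPM and to between 6.94 and 24.95 CPM in these libraries. The summed fibroblast genes ranged from 13.1 to 44.2 CPM in M0 libraries numbered 1 or 2 and from 9.74 to 29.8 in the rest. Stard4 in M1 was 22.4, 21.3 and 20.6 CPM in the 3 libraries numbered 2 and between 10.0 and 14.9 in the other 12. Insig1 in M1 was also highest in the libraries numbered 2, between 33.5 and 37.6 CPM against 29.4 or less. In the same M1 libraries the neutrophil and precursor genes summed to between 26.4 and 40.7 CPM, against 26.2 or less in the others. The part of these cells in the values was not tested. What the number stands for is not given in the sources used here.

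**Figure D5:**
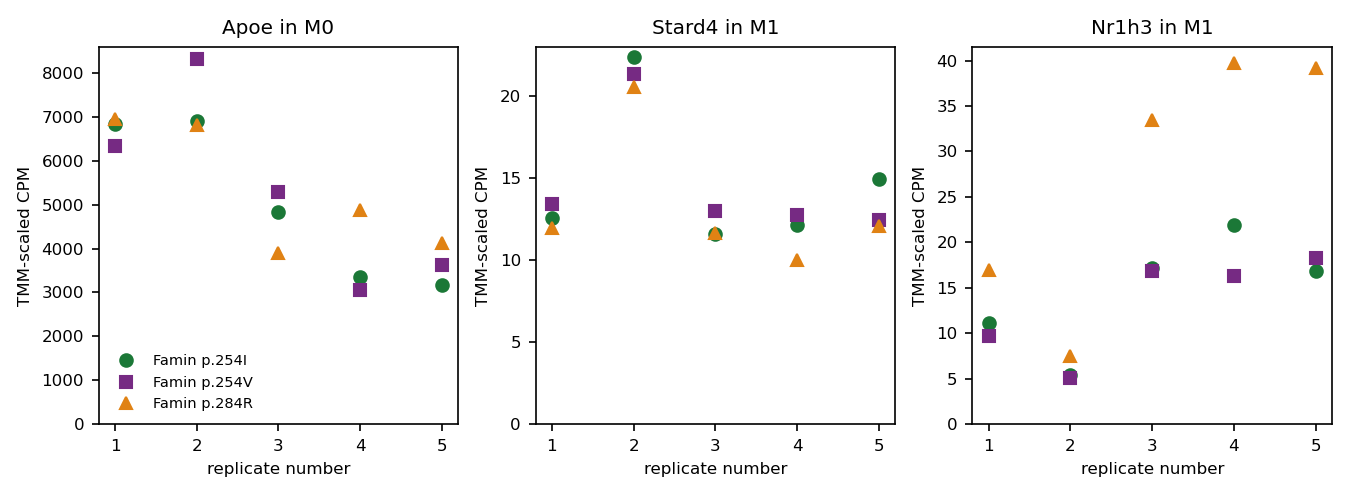
TMM-scaled CPM (y axis, from 0) of Apoe in M0, Stard4 in M1 and Nr1h3 in M1 by replicate number (x axis), with 1 point per library and a colour and shape per Famin genotype. Stard4 stands between 20.6 and 22.4 CPM in the 3 libraries numbered 2, where Nr1h3 is lowest, and Nr1h3 of p.284R is highest at each number.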

How the data were processed

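RNA of 45 cultures was sequenced. Per the paper's methods and the labels, the authors made stranded mRNA libraries, trimmed reads with Trim Galore and aligned them to mm10 with HISAT2 (the series text names Cutadapt and STAR). The counting tool, its annotation and its use of strand are not given in the sources used here. The authors deposited counts per Ensembl gene without normalization (29307 genes) and CPM for 11900 genes, made by dividing each count by the sum of those genes in its library. Reads recovered from the CPM equalled the counts for 100% of values (within 0.01 reads).

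Counts were fitted in R 4.3.3 with edgeR 4.0.16 (TMM, filterByExpr, robust glmQLFit over 9 groups, 12905 genes, Benjamini-Hochberg over all, threshold 0.05). The same steps had first been run on simulated independent libraries with a fixed spread. Those held no effect of mouse or replicate number, so they do not test the error rate of the fit where such effects are present. Levels are TMM-scaled CPM, and shares of sums of squares used a pseudocount of 0.5 CPM. Errors of fold changes are standard errors from the fit and other errors are SD. Alternatives were DESeq2 1.42.0, limma 3.58.1 (voom), other scaling, no filter, mouse or replicate blocks, fewer libraries and each mouse left out. Coordinates are from GENCODE M21.

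The members and lists were chosen with earlier results of these data known. All members are named by role. Values by library are given for those with the 3 largest log2 fold changes against M0 in each role, and for Hmgcs1, Pmvk, Nr1h3, Nr1h2 and Scap, which were added after their values were seen. Up to 3 genes of each other pathway list are named, those with the smallest adjusted p, except where a gene so chosen is not reported here. Promoter sequences are from RefSeq.

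Deviations from group means correlated over 9522 genes between cultures of a mouse, at 0.01 to 0.47 for M0 with M1, 0.20 to 0.64 for M0 with M2 and -0.17 to 0.47 for M1 with M2. Of these pairs within a mouse, 13, 15 and 9 of 15 lay over 0.1, in that order. Across genotypes, libraries with the same number correlated at 0.11 to 0.84 in M0, 0.20 to 0.85 in M1 and -0.41 to 0.78 in M2. The highest of these values lay above the highest within a mouse. They lay over 0.1 in 15 of 15 pairs in M0 and in M1 and in 13 of 15 in M2, so the numbers were taken to pair libraries in M0 and M1. The pairing within a mouse was not held to this rule. It rests on the shared genotype and number in the labels, and M0 with M1 and M1 with M2 would not have met the rule. All counts over 15 mice rest on that pairing. The labels do not state separate cultures beyond the mouse, so p-values measure the spread between these libraries.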

Additional observations from a re-analysis of the deposited data

Results flagged for a closer look

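Within each group of 5 libraries, the highest or lowest level of a member was singled out where its gap to the nearest other library, divided by the range of the group, exceeded 0.71. This happened 26 times among 279 groups and for 13 genes, where chance flags about 1 in 20 groups, and the cause was not tested. The same libraries serve all members, and 1 library can be flagged for several genes. The groups are therefore not independent, and these counts do not test for an excess over chance. Most flags fell on libraries numbered 5 or 2.

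Of p.284R mouse 5, the M0 library was the highest of its group for Acat2 (6.06 CPM, others 3.97 to 4.49), Fdft1 (9.93, others 7.41 to 7.95) and Sc5d (33.3, others 24.5 to 25.5). Its M2 library was the highest for Acat2 (8.11 CPM, others 4.63 to 5.32), Fdft1 (21.0, others 12.6 to 14.8), Cyp51 (91.7, others 54.0 to 62.8), Msmo1 (113, others 68.6 to 78.7) and Stard4 (70.0, others 40.5 to 48.4). Of p.254I mouse 5, the M0 library was the highest for Sqle (45.4 CPM, others 21.3 to 27.9), Lss (21.7, others 15.6 to 17.2), Cyp51 (40.5, others 22.2 to 26.6) and Stard4 (46.4, others 28.0 to 32.0).

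In M1, the libraries numbered 2 were the highest for Pmvk in p.254V (40.6 CPM, others 31.2 to 33.0) and p.284R (36.2, others 26.4 to 29.2). The same held for Insig1 in p.254I (34.3 CPM, others 24.3 to 27.0) and p.254V (37.6, others 23.6 to 27.5), and for Stard4 in p.254V (21.3, others 12.4 to 13.4) and p.284R (20.6, others 10.0 to 12.1). Msmo1 of p.254V was lowest in the M1 library numbered 2 (38.2 CPM, others 41.8 to 43.2), and Nr1h3 of p.254V was lowest in the M0 library numbered 2 (19.7, others 27.6 to 29.3).

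Apoe was lowest in M1 in p.254V mouse 4 (1527 CPM, others 2035 to 2152) and in p.284R mouse 3 (1373, others 2063 to 2275), and in M2 in p.284R mouse 3 (1171, others 2109 to 2464). Fdft1 was lowest in the M1 library of p.254I mouse 3 (4.78 CPM, others 5.33 to 5.43). Scap was highest in the M0 library of p.254V mouse 1 (68.5 CPM, others 59.7 to 61.9) and in the M2 library of p.254I mouse 2 (52.0, others 46.0 to 47.2).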

How the results depend on the processing

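Of 98 fold changes followed through 22 alternatives and 4 chosen after seeing the data, 88 kept their direction and their side of the threshold in every one. Members called in M1 against M0 were 27 to 30, in M2 against M0 28 and in M1 against M2 28 to 29. The mouse as a block (replicate block) gave 30, 28 and 28, adding Lss and Srebf1 in M1 against M0, and the replicate number as a block changed no other call on a member. In the genotype comparisons 0 members were called in each alternative, except that p.284R against p.254I in M1 gave 0 to 1 with a mouse left out (Scap without p.284R mouse 1, Nr1h3 without p.284R mouse 2) and 1 without the M1 libraries numbered 2. Over all genes that comparison called 34 genes, 64 with the replicate block, 64 by the DESeq2 Wald test, 11 by limma-voom, 7 when mice were a random block in it, 1 with only the libraries compared, 70 without the libraries numbered 2 and 0 to 110 with a mouse left out.

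Directions that turned belonged to differences that were not called, and the cause was not tested. Mvk in M1 against M0 (-0.03) was 0.0128 without 2 or all 3 of the libraries that stood apart, and -0.0714 to 0.0069 with a mouse left out (0.0013 without p.254I mouse 4, 0.0004 without p.254V mouse 5, 0.001 without p.284R mouse 3). Soat1 in M2 against M0 (-0.01) was 0.0136 by limma-voom, 0.0135 when mice were a random block, 0.006 with the replicate block and -0.0316 to 0.0293 with a mouse left out (0.0183, 0.0155 and 0.0053 for p.254I mice 1 to 3, 0.0148 and 0.0166 for p.254V mice 1 and 2, 0.01 for p.284R mouse 2). In M1 against M2 without the M1 libraries numbered 2, Abca1 was -0.0077, Apoe -0.0193 (-0.0032 without p.254I mouse 2, up to 0.0375 with another mouse left out) and Nr1h3 0.35 and called (adjusted p = 0.0116). Nr1h3 there was -0.0455 by limma-voom and -0.042 with the random block. Fdps in M1 against M0 lost its call by limma-voom (adjusted p = 0.0563) and without the low-count filter (0.0583), and without the 3 libraries that stood apart (0.0774).

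Depth limits Idi1 and Fdps, which rest on as few as 0 and 8 reads in an M1 library. All values are relative to the other transcripts of a library, and RNA levels do not give enzyme activity, sterol content or flux.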

Other observations

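The 18 synthesis genes were set against the mean log2 CPM of their group of 5 libraries. In M2, 18 of 18 were above it in p.254I mouse 5 and in p.284R mouse 5, and 0 of 18 in p.254I mouse 2 and p.284R mouse 3, while the p.254V libraries had 3 to 13 above it. In M0, 17 of 18 were above it in p.254I mouse 5 and 16 in p.284R mouse 5, and the other libraries had 2 to 14. In M1 the libraries were mixed, with 6 to 15 genes above it in p.254I, 2 to 15 in p.254V and 4 to 14 in p.284R.

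In M0, libraries numbered 5 were compared with those numbered 1 of the same genotype. Of the 18 synthesis genes, 12 were higher in number 5 in all 3 genotypes, 1 was lower in all 3 (Mvd) and the rest were mixed. Of the 5 efflux and LXR genes, 4 were lower in number 5 in all 3 genotypes (Abca1, Abcg1, Apoe and Nr1h3) and 1 was higher (Nr1h2). These numbers were chosen after their values were seen and are given with no test.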
